A study of Homo sapiens and Mus musculus with 22 samples.

Results

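A set of 9 regulator genes of the interferon and MHC class I pathway were followed across 8 groups of small cell lung cancer (SCLC) libraries. They are JAK1, STAT2, STAT3, IRF9, IRF1, IRF2, IRF3, IRF7 and NLRC5, and in the mouse their orthologues. The 9 members were taken by gene symbol from 3 count tables that list 25435 genes (H69 and H69M), 20113 genes (H69EZ) and 24047 genes (mouse). All 9 were present in each table, and all 9 passed the filter on low counts in each.

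RNA was sequenced from related lines or fractions that differ in their labelled level of MHC class I, which shows peptides on the cell surface to cytotoxic T cells. H69 (NCI-H69), a line from human SCLC, is labelled as having little or no MHC class I, and H69M is its MHC class I high derivative. H69M was also sequenced as fractions sorted high and low for PD-L1, a checkpoint ligand (gene CD274). In the labels the high fraction is MHC class I high and the other MHC class I low. H69EZ came from H69 cells given an EZH2 inhibitor for 6 days, then grown without it and selected for adherence, and its libraries are fractions sorted high and low for surface HLA-ABC. RPP-A is an adherent, MHC class I high derivative of the MHC class I low mouse SCLC line RPP. Each group had 3 libraries, except 2 for each HLA fraction. H69M, H69EZ and RPP-A each stand for 1 derivation, and both fractions of a sort share the history of the line they came from. The labels do not say that replicates were separate cultures, and p-values therefore reflect the spread among these libraries alone, which may be technical.

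JAK1 is a kinase bound to the receptors for interferons and for IL6 family cytokines. Once an interferon binds, JAK kinases phosphorylate STAT proteins; STAT2 joins another STAT and IRF9 to form ISGF3, which binds the interferon-stimulated response element (ISRE) of many antiviral genes, while STAT dimers bind a shorter element called GAS. STAT3 is the main STAT of IL6 family signals. The interferon regulatory factors share a DNA-binding fold: IRF1 activates class I and interferon-induced genes, IRF2 was first known as its competitor, and IRF3 and IRF7 switch on interferon genes after nucleic acids are sensed. NLRC5 is the transactivator of MHC class I genes and works through DNA-binding partners, as its relative CIITA does for class II.

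Promoter windows were read from RefSeq (GRCh38.p14), from 250 bases before to 50 bases after the start of a gene, for the 5 members found there: JAK1 with 3 starts, and STAT2, STAT3, IRF9 and IRF1 with 1 start each. The windows of 3 genes are printed because STAT2 and IRF9 belong to the same complex and changed together in several comparisons below, and because IRF1 set H69M apart from both of its fractions. Capitals mark a match to GAS, searched as TTCNNNGAA, which reads the same on both strands. The IRF1 window lies on the minus strand at chr5:132490724-132491023, that of IRF9 on the plus strand at chr14:24161015-24161314, and that of STAT2 on the minus strand at chr12:56360058-56360357.

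IRF1: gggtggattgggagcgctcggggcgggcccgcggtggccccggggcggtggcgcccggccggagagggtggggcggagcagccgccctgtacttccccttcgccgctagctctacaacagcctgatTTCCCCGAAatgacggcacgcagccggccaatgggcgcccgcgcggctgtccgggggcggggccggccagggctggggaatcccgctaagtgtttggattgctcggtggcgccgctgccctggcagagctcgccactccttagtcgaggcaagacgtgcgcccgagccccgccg

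IRF9: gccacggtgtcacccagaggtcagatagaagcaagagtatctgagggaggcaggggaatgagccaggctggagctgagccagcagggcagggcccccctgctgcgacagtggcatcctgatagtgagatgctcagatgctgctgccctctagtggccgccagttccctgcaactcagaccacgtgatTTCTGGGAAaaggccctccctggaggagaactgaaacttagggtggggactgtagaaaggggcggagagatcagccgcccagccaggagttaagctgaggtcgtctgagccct

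STAT2: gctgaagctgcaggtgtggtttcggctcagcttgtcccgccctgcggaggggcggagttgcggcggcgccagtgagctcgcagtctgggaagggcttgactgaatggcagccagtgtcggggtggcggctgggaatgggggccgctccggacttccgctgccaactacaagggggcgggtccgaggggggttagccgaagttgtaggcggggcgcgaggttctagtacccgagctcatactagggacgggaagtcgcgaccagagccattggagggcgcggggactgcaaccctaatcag

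The GAS match of IRF1 lay at positions -124 to -116 from the start and that of IRF9 at -63 to -55. The other 5 of the 7 windows held no such match, and none of the 7 held the ISRE core (GAAA, any 2 bases and GAAA again), searched on both strands. Of 35116 promoter windows of the same length, 7.66% held a GAS match and 3.57% the ISRE core. A match describes letters only, and a window without one says nothing of binding elsewhere.

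Total counts per library were 12814594 to 26834561 in the table of H69 and H69M, 40568796 to 52458228 in the H69EZ table and 10817795 to 19973785 in the mouse table. Levels are TMM-scaled counts per library of fixed size (CPM), given per library or as mean ± SD, and were scaled within each table only. Log2 fold changes are given ± SE from edgeR's quasi-likelihood test, and a gene is said to rise or fall where its Benjamini-Hochberg adjusted p over all genes tested was under 0.05. Between 65.6% and 81.3% of all genes passed that threshold in the 8 comparisons, so a call by itself sets no member apart. In the mouse table the RPP library EHK_RPP4 and the RPP-A library RPPM3 each stood apart from the other 2 of their group, where chi-square divided by its degrees of freedom was 28.1 to 37.2, against 3.42 and 1.33 between those others. RPPM1 and RPPM2 were the closest replicates of all. The sorts left their mark on RNA: CD274 averaged 13.3 CPM in the PD-L1 high and 0.265 CPM in the PD-L1 low fraction, and HLA-B 30.4 CPM in the HLA high and 0.325 CPM in the HLA low fraction. In such bulk samples fewer cells of a type and less RNA per cell cannot be told apart. In the GENCODE v29 annotation exons of IRF1 overlap C5orf56 and those of IRF3 overlap BCL2L12 on the opposite strand, and both are uncertain to that extent, since whether counting used strand is not given in the sources used here. Exons of IRF9 overlap AL136295.5 on the same strand, which strand could not resolve. That gene has no row of its own in the human tables, so how such reads were counted is unknown and IRF9 is uncertain in the same way.

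All 9 regulators differed between the PD-L1 fractions of H69M. NLRC5, STAT2 and IRF9 rose several-fold in the PD-L1 high fraction, JAK1, IRF2, IRF7, IRF1 and STAT3 rose by less than 2-fold, and IRF3 fell. Thus 8 of the 9 rose, where 39.0% of all 15445 genes rose, and 1 fell, where 39.4% fell; 78.3% of all genes passed the threshold. The median log2 fold change was 0.65 over the members and -0.00 over all genes.

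Among the signalling members, JAK1 had 110.3, 114 and 119 CPM in the PD-L1 high libraries, against 73.7, 73.0 and 70.9 CPM in the PD-L1 low libraries. Every PD-L1 high library lay above every PD-L1 low library, a log2 fold change of 0.65 ± 0.05 (adjusted p = 3.35e-10). STAT2 had 119.8, 130.2 and 144 CPM in PD-L1 high, against 34.2, 35.0 and 36.3 CPM in PD-L1 low libraries. The fractions stood far apart, with a 3.73-fold rise (log2 1.90 ± 0.08, adjusted p = 6.76e-15). IRF9, the DNA-binding subunit of ISGF3, had 62.5, 61.0 and 67.6 CPM in PD-L1 high and 5.94, 6.47 and 6.58 CPM in PD-L1 low libraries. Its 10.1-fold rise (log2 3.34 ± 0.11, adjusted p = 1.48e-16) was the steepest of the 9 in this sort. STAT3 differed little, at 322 ± 12.2 CPM in PD-L1 high and 260.5 ± 7.15 CPM in PD-L1 low cells (SD, n = 3 each), although its libraries did not overlap either (log2 0.31 ± 0.05).

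Of the IRF transcription factors, IRF2 averaged 31.5 ± 2.01 CPM in PD-L1 high and 19.6 ± 1.32 CPM in PD-L1 low cells, a rise of 0.68 ± 0.08 on the log2 scale. IRF7 rose by 0.64 ± 0.12 and IRF1 by 0.44 ± 0.07, each with no overlap between fractions. IRF3 ran the other way: it had 71.6, 75.2 and 76.8 CPM in PD-L1 high libraries, against 95.1, 89.3 and 87.9 CPM in PD-L1 low libraries. All PD-L1 high libraries lay below all PD-L1 low ones, a log2 fold change of -0.29 ± 0.06 (adjusted p = 1.84e-04). NLRC5 had 18.6, 19.1 and 19.6 CPM in PD-L1 high, against 2.93, 2.51 and 2.53 CPM in PD-L1 low libraries, a 7.12-fold rise (log2 2.83 ± 0.11, adjusted p = 6.17e-15). The 3 high libraries were tightly grouped, and so were the 3 low ones.

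**Figure D1:**
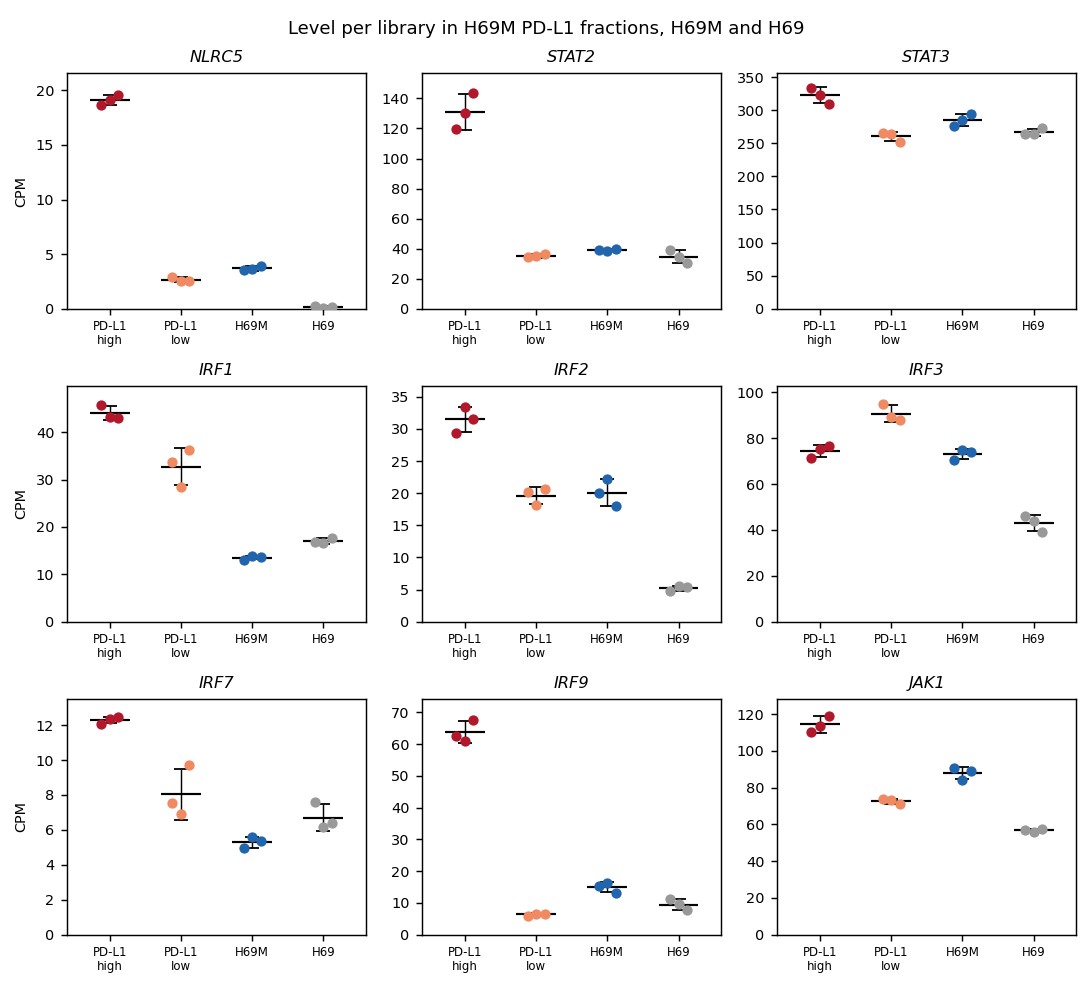
Level of each regulator (CPM, linear axis from 0) in the 3 libraries of PD-L1 high, PD-L1 low, unsorted H69M and H69; points are libraries, horizontal bars means and error bars SD. NLRC5, STAT2 and IRF9 stand highest in PD-L1 high by a wide margin, IRF3 is highest in PD-L1 low, and IRF1 and IRF7 are lowest in unsorted H69M.

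Unsorted H69M was then set against its parent H69. Here the largest rises were those of NLRC5 and IRF2, whereas STAT2 and STAT3 did not pass the threshold. STAT2 averaged 39.1 ± 0.902 CPM in H69M and 34.7 ± 4.24 CPM in H69, and STAT3 285 ± 8.84 CPM in H69M and 267 ± 5.25 CPM in H69. Of the members, 5 rose, where 35.9% of all genes rose, and 2 fell, where 36.6% fell; 72.5% of all genes passed the threshold. The median log2 fold change was 0.62 over the members and -0.01 over all genes.

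NLRC5 had 3.55, 3.63 and 3.94 CPM in the H69M libraries, against 0.282, 0.113 and 0.161 CPM in the H69 libraries. The H69 values rest on 7, 3 and 2 counts, so the 19.2-fold rise (log2 4.26 ± 0.24, adjusted p = 3.75e-12) is well above the spread but its size is loosely set. IRF2 had 20.1, 22.1 and 18.02 CPM in H69M, against 4.75, 5.51 and 5.33 CPM in H69 libraries. Each H69M library was over 3 times as high as any of H69, a 3.86-fold rise (log2 1.95 ± 0.10, adjusted p = 1.27e-12). IRF3 averaged 73.0 ± 2.12 CPM in H69M and 43.0 ± 3.45 CPM in H69, a rise of 0.75 ± 0.06 on the log2 scale. JAK1 averaged 88.0 ± 3.44 CPM in H69M and 56.8 ± 0.809 CPM in H69, a rise of 0.63 ± 0.05, and IRF9 averaged 15.0 ± 1.65 CPM in H69M and 9.43 ± 1.77 CPM in H69, a rise of 0.62 ± 0.11.

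IRF1 and IRF7 were the members that fell. IRF1 had 13.1, 13.9 and 13.7 CPM in H69M, against 16.7, 16.6 and 17.7 CPM in H69 libraries, with no overlap (log2 -0.32 ± 0.09, adjusted p = 0.00270). IRF7 averaged 5.29 ± 0.319 CPM in H69M and 6.70 ± 0.759 CPM in H69 (log2 -0.35 ± 0.13, adjusted p = 0.0190), a call that was lost without the first H69 or the first H69M library. STAT2 changed by 0.16 ± 0.08 (adjusted p = 0.0792) and STAT3 by 0.10 ± 0.05 (adjusted p = 0.0731). Both were called higher under other scalings, so a small rise of either is not settled by these libraries.

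The effect of the PD-L1 sort and that of H69M over H69 share no library, and their difference was tested in the same fit. For 8 of the 9 members the effects differed, where 71.4% of all genes did: the sort had the higher effect for 5 members and 35.3% of all genes, and the lower effect for 3 members and 36.1% of all genes. IRF9 and STAT2 rose by more in the sort, by 2.71 ± 0.16 (adjusted p = 5.13e-12) and 1.74 ± 0.11 (adjusted p = 2.05e-11) on the log2 scale. IRF7, IRF1 and STAT3 also moved further up in the sort, by 0.99 ± 0.17, 0.76 ± 0.11 and 0.21 ± 0.07; the STAT3 value was no longer called under library totals, with no filter on low counts, or without the first PD-L1 low or the first PD-L1 high library. IRF2 and IRF3 had differences of -1.26 ± 0.14 and -1.04 ± 0.08, and NLRC5 of -1.43 ± 0.34 (adjusted p = 8.38e-04), so for these 3 the effect in H69M over H69 was the higher one. The NLRC5 difference rests on 12 counts in H69, so its size is loosely set. JAK1 rose by nearly the same amount in both, with a difference of 0.02 ± 0.07 (adjusted p = 0.799), a p that does not show the effects to be equal.

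Since PD-L1 low cells, like H69, are labelled as low in MHC class I, they were compared with H69 directly. Of the members 5 rose, where 39.0% of all genes rose, and 1 fell, where 36.9% fell, with 75.9% of all genes past the threshold. NLRC5 averaged 2.66 ± 0.233 CPM in PD-L1 low and 0.185 ± 0.0867 CPM in H69, a rise of 3.78 ± 0.27 on the log2 scale (adjusted p = 1.11e-10). IRF2 rose by 1.92 ± 0.11, IRF3 by 1.07 ± 0.06, IRF1 by 0.94 ± 0.08 and JAK1 by 0.35 ± 0.05. IRF9 fell, at 6.33 ± 0.343 CPM in PD-L1 low and 9.43 ± 1.77 CPM in H69 (log2 -0.62 ± 0.13, adjusted p = 1.89e-04). STAT2 averaged 35.2 ± 1.08 CPM in PD-L1 low and 34.7 ± 4.24 CPM in H69, a difference that did not pass the threshold. Nor did STAT3, at 260.5 ± 7.15 CPM in PD-L1 low and 267 ± 5.25 CPM in H69, or IRF7, at 8.04 ± 1.47 CPM in PD-L1 low and 6.70 ± 0.759 CPM in H69. IRF7 (log2 0.23 ± 0.12) was called higher under library totals, at a minimum count of 100, without the first H69 or without the second PD-L1 low library, with values of 0.10 to 0.33 over the libraries left out in turn.

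PD-L1 high cells, set against H69, were higher in all 9 members, where 38.1% of all genes rose and 77.6% passed the threshold. The median log2 fold change was 1.38 over the members and -0.02 over all genes. The log2 rises were 6.62 ± 0.18 for NLRC5, 2.72 ± 0.10 for IRF9, 1.90 ± 0.08 for STAT2, 1.38 ± 0.08 for IRF1 and 1.01 ± 0.05 for JAK1, and IRF2 was 6.06-fold higher. They were below 1 for IRF7 (0.87 ± 0.12), IRF3 (0.78 ± 0.06) and STAT3 (0.28 ± 0.05). This comparison and those of PD-L1 low and H69M against H69 share the H69 libraries.

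Across the 4 groups of this table the order of levels therefore differed from gene to gene. NLRC5 and JAK1 ran PD-L1 high, H69M, PD-L1 low, H69 from high to low, with each neighbour called different. IRF9 ran PD-L1 high, H69M, H69, PD-L1 low, again with each neighbour called different. STAT2 was high in PD-L1 high only, and H69M, PD-L1 low and H69 followed without a call between neighbours, though PD-L1 low was called below H69M with no filter or with only these groups fitted. IRF2 was highest in PD-L1 high and lowest in H69, with H69M and PD-L1 low not called different between them. IRF3 was highest in PD-L1 low and lowest in H69, with PD-L1 high and H69M not called different. STAT3 followed the order PD-L1 high, H69M, H69, PD-L1 low, with a call only at the top, where it depended on the scaling and the filter. IRF1 ran PD-L1 high, PD-L1 low, H69, H69M with each neighbour called different, and IRF7 had the same order, in which PD-L1 low and H69 were not called different.

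The fractions were also compared with the unsorted H69M from which they were taken. In PD-L1 high cells 8 of the 9 members rose against H69M, where 37.8% of all genes rose and 70.4% passed the threshold; IRF3 did not pass (log2 0.03 ± 0.06). STAT3, at 0.18 ± 0.05, was not called under library totals, with no filter on low counts or without the first PD-L1 high library. In PD-L1 low cells 3 members rose, where 32.6% of all genes rose, and 4 fell, where 33.0% fell, with 65.6% past the threshold. IRF9 fell most, by 1.24 ± 0.12 on the log2 scale, followed by NLRC5 (-0.47 ± 0.14), JAK1 (-0.28 ± 0.05) and STAT3 (-0.13 ± 0.05), of which STAT3 lost its call under library totals, at a minimum count of 100 or without the third H69M or the third PD-L1 low library. IRF3 rose by 0.31 ± 0.06 in PD-L1 low cells.

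IRF1 and IRF7 were higher in both fractions than in the line they were sorted from. IRF1 had 43.0 to 45.8 CPM in PD-L1 high and 28.4 to 36.2 CPM in PD-L1 low libraries, against 13.1 to 13.9 CPM in unsorted H69M. Both fractions lay wholly above the unsorted libraries, by 1.70 ± 0.08 (adjusted p = 2.16e-13) and 1.26 ± 0.08 (adjusted p = 6.04e-11) on the log2 scale. IRF7 averaged 12.3 ± 0.185 CPM in PD-L1 high and 8.04 ± 1.47 CPM in PD-L1 low cells, against 5.29 ± 0.319 CPM in H69M, with rises of 1.22 ± 0.12 and 0.58 ± 0.13. Of all genes 8.56% were called higher in both fractions, while 8.37% were called lower in both, as no member was; 16.9% were called in the same direction in both. Both comparisons share the H69M libraries. The summed level of 11 stress and immediate early genes, a list added after the data were seen, was 550.5 to 572 CPM in PD-L1 high and 1482 to 1657 CPM in PD-L1 low libraries, against 579 to 602 CPM in H69M and 590 to 636 CPM in H69. The higher sum in PD-L1 low libraries came nearly all from DDIT4, at 1014 ± 100.2 CPM in PD-L1 low and 136 ± 5.61 CPM in H69M. Against H69M, 6 of the 10 tested genes rose and 3 fell in PD-L1 low cells, and 4 rose and 4 fell in PD-L1 high cells. The part of these genes in the IRF1 and IRF7 levels was not tested.

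For the members that rose in PD-L1 high cells, the place of unsorted H69M between the fraction means, on the linear CPM scale, was taken as a description. It was 3.75% of the way from PD-L1 low for IRF2, 4.12% for STAT2, 6.40% for NLRC5 and 15.1% for IRF9. JAK1 and STAT3 lay at 36.9% and 39.4%. For comparison CD274 lay at 28.8%, B2M at 17.6% and HLA-B at 16.3%, and the median was 19.6% (quartiles 10.03% and 27.9%) over 2520 genes called at least 2-fold higher in PD-L1 high. STAT2 and NLRC5 were thus below the lower quartile of those genes. So were IRF2, and IRF1 and IRF7, for which H69M lay below the PD-L1 low fraction (-170.1% and -64.5%). However, IRF2, IRF1 and IRF7 rose by less than 2-fold and are not of that set, and their places rest on smaller gaps between fractions. For IRF2 and STAT2, H69M was not called different from PD-L1 low in the main fit (adjusted p = 0.766 and 0.0880), so their places were not told apart from that of PD-L1 low.

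**Figure D2:**
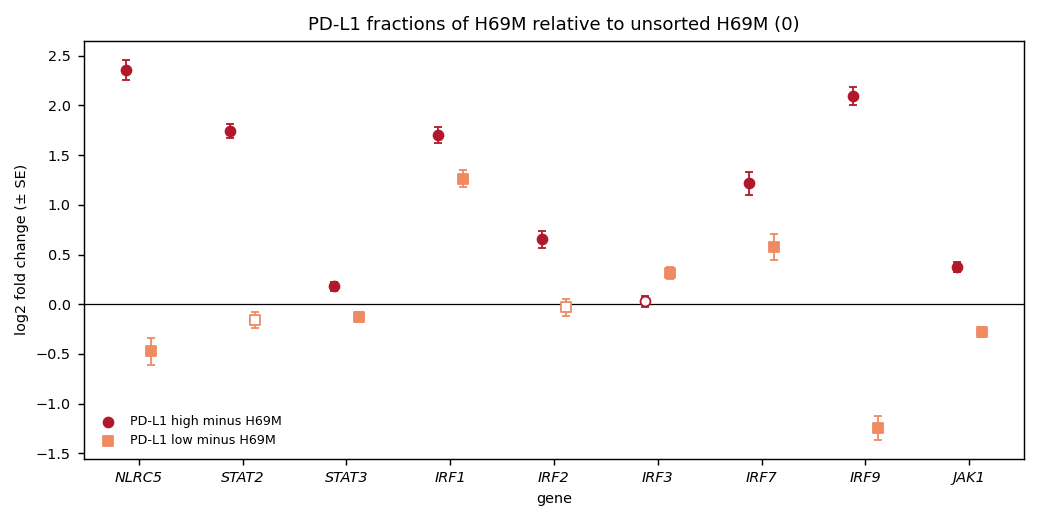
Log2 fold change (± SE) of each regulator in the PD-L1 high and the PD-L1 low fraction relative to unsorted H69M, which is at 0; filled points passed the threshold and open points did not. IRF1 and IRF7 lie above 0 in both fractions, whereas NLRC5, IRF9, JAK1 and STAT3 lie above 0 in PD-L1 high and below 0 in PD-L1 low.

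The HLA sort of H69EZ gave a second contrast of MHC class I high and low human cells, in its own table. JAK1 led it, with IRF9, IRF1 and STAT2 next, while NLRC5 moved little. In all, 7 members rose in HLA high cells, where 41.1% of all 14819 genes rose, and 1 fell, where 40.2% fell; 81.3% of all genes passed the threshold. The median log2 fold change was 0.57 over the members and 0.00 over all genes. With 4 libraries the spread was pooled across genes, so the adjusted p-values here are smaller than 2 libraries a group would give alone.

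JAK1 had 118 and 123 CPM in the HLA high libraries, against 36.1 and 35.2 CPM in the HLA low libraries, a 3.37-fold rise (log2 1.75 ± 0.07, adjusted p = 8.06e-135). IRF9 had 32.6 and 32.7 CPM in HLA high and 12.6 and 13.4 CPM in HLA low libraries (log2 1.33 ± 0.08). IRF1 had 36.9 and 34.7 CPM in HLA high and 16.1 and 14.1 CPM in HLA low libraries (log2 1.24 ± 0.08). For all 3 both HLA high libraries lay more than 2-fold above both HLA low ones.

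STAT2 averaged 46.1 ± 0.482 CPM in HLA high and 23.7 ± 1.97 CPM in HLA low cells (SD, n = 2 each), a rise of 0.96 ± 0.08. IRF7 rose by 0.57 ± 0.11 and STAT3 by 0.53 ± 0.06. NLRC5 had 3.64 and 3.31 CPM in HLA high, against 2.35 and 2.46 CPM in HLA low libraries, a 1.45-fold rise (log2 0.54 ± 0.16, adjusted p = 7.31e-04). The fractions did not overlap, but were close. IRF3 averaged 42.5 ± 5.32 CPM in HLA high and 50.5 ± 0.497 CPM in HLA low cells (log2 -0.25 ± 0.07, adjusted p = 9.95e-04), and the call was lost when either HLA low library was left out, with values of -0.38 to -0.12 over the 4 libraries left out in turn. IRF2 did not pass, at 17.5 ± 0.416 CPM in HLA high and 18.5 ± 0.617 CPM in HLA low cells (log2 -0.09 ± 0.09, adjusted p = 0.347), though under library totals it was called lower (log2 -0.24).

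In the mouse, the adherent RPP-A line had far more Irf7 than RPP, and more Irf9, Nlrc5, Irf1, Stat2 and Jak1. In all, 7 members rose, where 37.6% of all 14032 genes rose, and 1 fell, where 40.6% fell; 78.2% of all genes passed the threshold. The median log2 fold change was 1.88 over the members and -0.04 over all genes.

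Irf7 had 152, 155 and 99.8 CPM in the RPP-A libraries RPPM1, RPPM2 and RPPM3, against 2.45, 4.22 and 2.88 CPM in the RPP libraries EHK_RPP4, RPP1 and RPP2. RPPM3 was the lowest of RPP-A yet far above every RPP library, and the rise was 42.1-fold (log2 5.39 ± 0.26, adjusted p = 9.81e-07). Irf9 had 79.7, 84.0 and 76.5 CPM in RPP-A and 11.3, 10.9 and 12.2 CPM in RPP, in the same order of libraries (log2 2.80 ± 0.10, adjusted p = 2.52e-07). Nlrc5 had 45.1, 43.1 and 31.5 CPM in RPP-A, against 7.58, 6.72 and 7.10 CPM in RPP (log2 2.48 ± 0.17, adjusted p = 5.26e-06). RPPM3 was again the lowest of its group, and the lines did not overlap.

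Irf1 had 119, 126 and 154 CPM in RPP-A and 31.8, 23.9 and 25.1 CPM in RPP (log2 2.30 ± 0.15), and here RPPM3 was the highest of RPP-A. Stat2 averaged 145 ± 24.1 CPM in RPP-A and 39.5 ± 1.91 CPM in RPP (log2 1.88 ± 0.14), and Jak1 433 ± 16.1 CPM in RPP-A and 179 ± 0.257 CPM in RPP (log2 1.28 ± 0.09). Stat3 was called higher by 0.26 ± 0.10 (adjusted p = 0.0408), but its sign flipped to -0.11 when library totals replaced TMM. Irf3 averaged 25.6 ± 1.16 CPM in RPP-A and 31.6 ± 0.783 CPM in RPP (log2 -0.30 ± 0.09, adjusted p = 0.0171). The calls of Stat3 and Irf3 were both lost without RPP1, RPP2, RPPM1 or RPPM2 and with RPPM1 and RPPM2 summed, and that of Stat3 also at a minimum count of 100.

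Irf2 averaged 59.3 CPM in both lines, and the average hid a split within each. The RPP-A libraries RPPM1, RPPM2 and RPPM3 had 54.7, 51.9 and 71.3 CPM, and the RPP libraries EHK_RPP4, RPP1 and RPP2 had 46.8, 67.2 and 64.0 CPM. RPPM3 was the high one of RPP-A and EHK_RPP4 the low one of RPP, and the lines overlapped. The log2 fold change was -0.00 ± 0.17 (adjusted p = 0.992). Without EHK_RPP4 and RPPM3, the libraries that stood apart, Irf2 was called lower in RPP-A, with a log2 fold change of -0.26 (adjusted p = 2.46e-04). These libraries were also the ones that ran against a fall. Leaving them out therefore favours a fall and cannot decide whether Irf2 fell. In that setting 12534 of all 14154 genes were called.

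**Figure D3:**
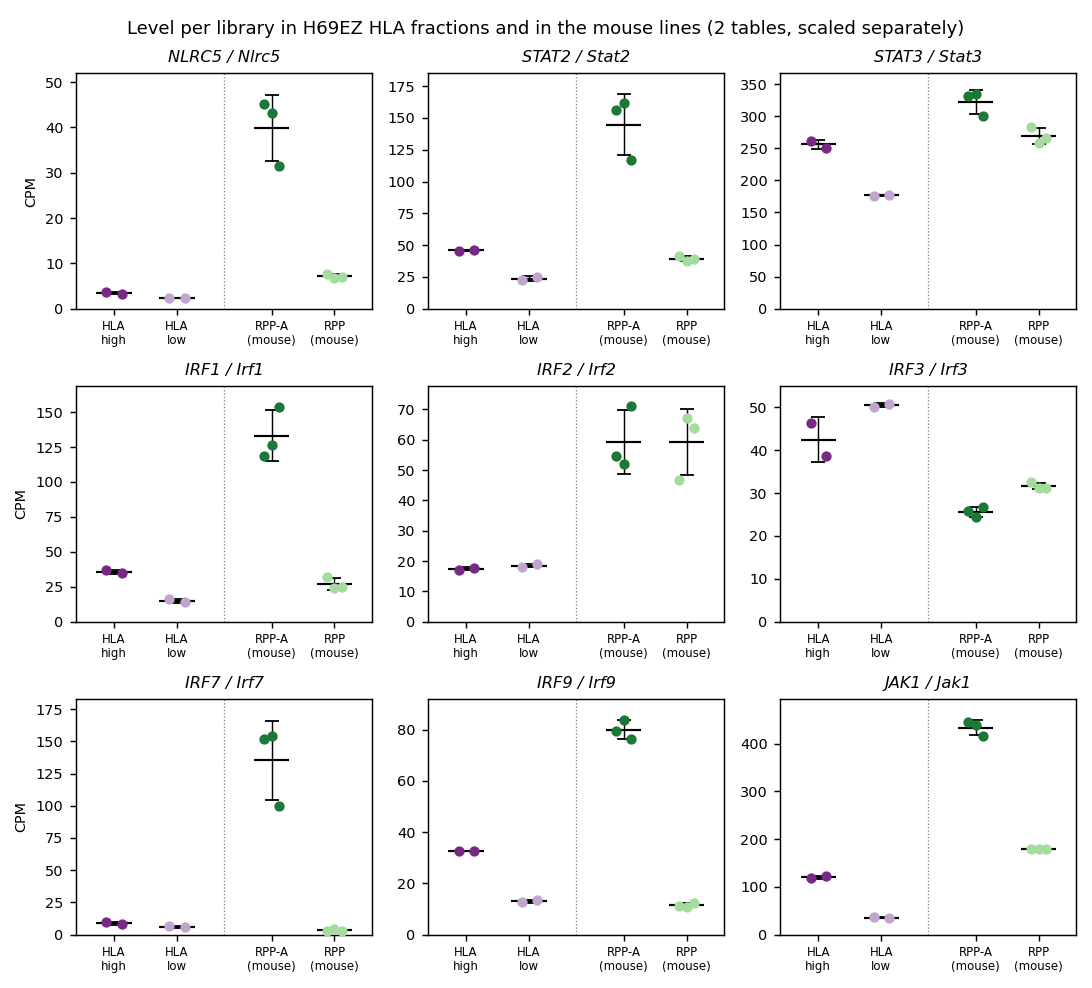
Level of each regulator (CPM, linear axis from 0) in the HLA high and HLA low fractions of H69EZ (2 libraries each) and, right of the dotted line, of its orthologue in RPP-A and RPP (3 libraries each); points are libraries, horizontal bars means and error bars SD, and the tables were scaled separately. Irf7 separates the mouse lines most widely, whereas JAK1 does so for the HLA fractions.

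Set side by side, the 4 comparisons of MHC class I high with low cells had some regulators in common and parted on others. In 3 of them, both sorts and the adherent mouse line, JAK1, STAT2, IRF1, IRF7, IRF9 and NLRC5 rose each time and IRF3 fell each time. STAT3 was also called higher in all 3, with the mouse value changing sign under library totals. The IRF3 fall was less firm: leaving out either HLA low library removed its call between the HLA fractions. Dropping RPP1, RPP2, RPPM1 or RPPM2, or summing RPPM1 and RPPM2, removed the call of Irf3. The share of all genes called in 1 direction in all 3 is not given here. The shared direction by itself therefore sets no member apart. IRF2 rose in the PD-L1 sort but did not pass in the HLA sort, where library totals made it a fall, or in the mouse. H69M over H69 was the exception: it was the comparison in which IRF3 rose and in which IRF1 and IRF7 fell. The size of the NLRC5 rise ranged from 0.54 ± 0.16 in the HLA sort to 4.26 ± 0.24 in H69M over H69. The HLA sort, the mouse comparison and those in the H69 table share no library, and differences in effect between tables were not tested. Library totals in place of TMM moved the median of all genes by -0.14 (PD-L1 sort), -0.15 (HLA sort) and -0.37 (mouse). After that shift was taken off, no member value differed from its TMM value by more than 0.00376. A change of scaling moves all genes of a comparison by nearly the same amount, so this follows from the method. It does not tell which scaling is right.

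**Figure D4:**
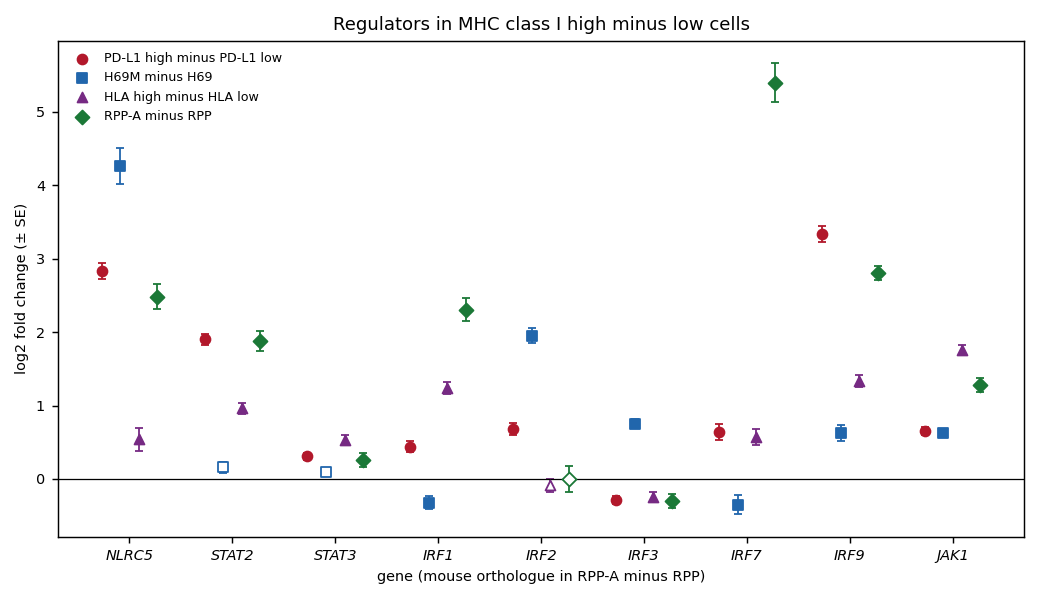
Log2 fold change (± SE) of the 9 regulators in PD-L1 high minus low, H69M minus H69, HLA high minus low and RPP-A minus RPP; filled points passed the threshold and open points did not. NLRC5 lies above 0 in all 4, and IRF3 lies above 0 only in H69M minus H69.

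The NLRC5 level was set beside 8 MHC class I pathway genes known to need it, among them HLA-B, HLA-C, B2M, TAP1 and PSMB9, chosen with results of these data known. In the PD-L1 sort all 8 rose, with a median log2 fold change of 4.66, beside 2.83 for NLRC5. In H69M over H69, 7 rose and 1 did not pass, with a median of 3.02 beside 4.26 for NLRC5. PD-L1 low cells against H69 looked different: NLRC5 was 3.78 higher, while 5 of the 8 rose, 2 fell and the median was 0.44. B2M was among those that fell there, with a log2 fold change of -0.57 ± 0.05, and the transporter gene TAP1 rose by 4.89 ± 0.41. The TAP1 level in H69 rests on 9 counts over its libraries, so the size of that rise is loosely set. In the HLA sort all 8 rose with a median of 4.12 beside 0.54 for NLRC5, where the sort on surface HLA-ABC itself selects for several of the 8. In the mouse all 5 listed orthologues or counterparts rose (H2-K1, H2-D1, B2m, Tap1 and Psmb9), with a median of 1.81 beside 2.48 for Nlrc5. Reads may be shared between HLA-B and HLA-C and between H2-K1 and H2-D1, which are close in sequence, so values of single heavy chain genes are uncertain.

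The lists that follow are to be read beside the shares of all genes. In the PD-L1 sort 39.0% of all genes rose and 39.4% fell, and in H69M over H69 35.9% and 36.6%. In the HLA sort 41.1% rose and 40.2% fell, and in the mouse 37.6% and 40.6%. A count near these shares sets no list apart. The DNA-binding partners of NLRC5 and CIITA were less uniform than the MHC class I genes above. Of 8 tested, 3 rose and 2 fell in the PD-L1 sort, 3 fell and 5 did not pass in H69M over H69, and in the mouse 3 rose and 4 fell. In the HLA sort 3 of 9 rose and 3 fell. RFXANK, a subunit of the RFX complex, rose by 0.93 ± 0.07 (PD-L1 sort) and 0.92 ± 0.08 (HLA sort), and Rfxank by 0.54 ± 0.12 in the mouse. It did not rise in H69M over H69, at 25.2 ± 0.666 CPM in H69M and 24.1 ± 1.90 CPM in H69. ATF1, another partner, ran opposite ways in the sorts. It averaged 28.9 ± 2.47 CPM in PD-L1 high and 13.9 ± 1.14 CPM in PD-L1 low cells. In H69EZ it averaged 31.1 ± 3.11 CPM in HLA high and 45.7 ± 1.48 CPM in HLA low cells.

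Upstream of JAK1, the only interferon ligand gene of 10 with enough counts to be tested was IFNE, and none was tested in the mouse. IFNE had 65 counts over the 3 PD-L1 high libraries, 7 over H69M and none in PD-L1 low or H69, and 71 over the HLA high libraries with none in HLA low. Of the 6 interferon receptor genes, 5 rose and 1 fell in both the PD-L1 sort and the mouse, 5 rose in the HLA sort, and 4 rose and 1 fell in H69M over H69. IFNAR2, a chain of the type I interferon receptor, was at 65.0 ± 3.13 CPM in PD-L1 high and 34.3 ± 1.14 CPM in PD-L1 low cells, and rose by 0.95 ± 0.07 in H69M over H69, 1.63 ± 0.08 in the HLA sort and 4.22 ± 0.13 (Ifnar2) in the mouse. The lambda receptor gene Ifnlr1 fell in the mouse (log2 -4.20 ± 0.31).

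The IL6 family, whose receptors also use JAK1 and lead to STAT3, held genes that moved by far more than STAT3 itself. Of 11 tested genes 7 rose and 2 fell in the PD-L1 sort and 8 rose and 1 fell in H69M over H69; 7 of 12 rose and 3 fell in the HLA sort, and 7 of 9 rose and 1 fell in the mouse. IL6ST, the shared signalling receptor gp130, was at 484 ± 18.5 CPM in PD-L1 high, 5.59 ± 2.80 in PD-L1 low, 119 ± 9.90 in H69M and 0.311 ± 0.193 CPM in H69. OSMR, the oncostatin M receptor, was at 135 ± 5.30 CPM in PD-L1 high and 3.05 ± 0.755 CPM in PD-L1 low cells, and Osmr at 349 ± 9.65 CPM in RPP-A and 0.548 ± 0.240 CPM in RPP. The STAT3 level changed by at most 0.53 on the log2 scale in the same 4 comparisons; RNA levels say nothing of its phosphorylation.

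Among the other JAK and STAT genes 4 of 6 rose in the PD-L1 sort, 6 of 8 in the HLA sort and 4 of 8 in the mouse, whereas in H69M over H69 2 of 6 rose and TYK2, a kinase of the type I interferon receptor, fell by 0.89 ± 0.07. JAK2, which serves the interferon gamma receptor, had 24.5 to 27.6 CPM in PD-L1 high and 4.41 to 6.00 CPM in PD-L1 low libraries. It rose by 2.33 ± 0.11 in that sort, and Jak2 rose by 2.16 ± 0.11 in the mouse. Inhibitors of the pathway did not move as 1 group: 8 of 18 rose and 7 fell in the PD-L1 sort, 6 rose and 11 fell both in H69M over H69 and in the HLA sort, and 9 of 17 rose and 5 fell in the mouse. SOCS1, a feedback inhibitor of JAK kinases, rose by 2.56 ± 0.14 in the PD-L1 sort and 1.71 ± 0.17 in H69M over H69, and Socs1 by 3.05 ± 0.20 in the mouse. SOCS2 rose by 3.63 ± 0.10 in the PD-L1 sort and 5.29 ± 0.11 in the HLA sort, and fell by 2.67 ± 0.09 in H69M over H69.

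Among the kinases and adaptors that act on IRF3 and IRF7, 8 of 11 rose and 3 did not pass in the PD-L1 sort, 6 rose and 4 fell in H69M over H69, 6 of 12 rose and 5 fell in the HLA sort, and 7 of 12 rose and 2 fell in the mouse. TMEM173, which encodes the DNA-sensing adaptor STING, was at 69.9 ± 3.29 CPM in PD-L1 high and 2.90 ± 0.470 CPM in PD-L1 low cells, and at 19.3 ± 0.484 CPM in HLA high and 0.391 ± 0.0614 CPM in HLA low cells. IKBKE, a kinase that phosphorylates IRF3 and IRF7, rose by 3.66 ± 0.16 in the PD-L1 sort, 1.09 ± 0.16 in H69M over H69 and 4.84 ± 0.20 in the HLA sort, and Ikbke by 4.13 ± 0.17 in the mouse. Among the remaining IRF genes and IRF2 cofactors, 1 of 5 rose and 4 fell in the PD-L1 sort, 1 of 6 rose and 4 fell in the HLA sort, 3 of 7 rose and 4 fell in the mouse, and 2 of 5 rose and 2 fell in H69M over H69. IRF5 fell in the PD-L1 sort (log2 -2.91 ± 0.18) and in the HLA sort (-2.24 ± 0.16), while Irf5 rose by 3.58 ± 0.53 in the mouse.

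**Figure D5:**
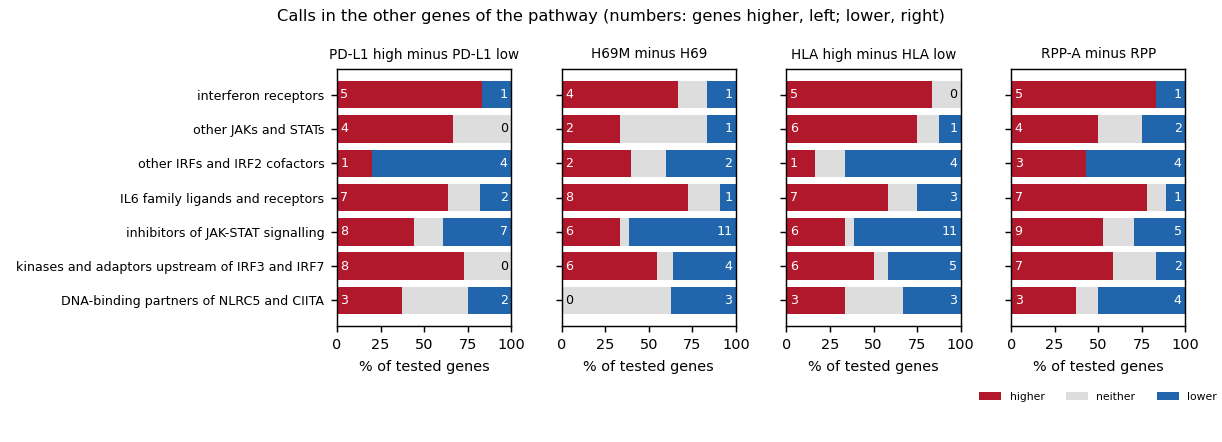
Share of the tested genes of 7 pathway lists that rose, did not pass or fell in PD-L1 high minus low, H69M minus H69, HLA high minus low and RPP-A minus RPP; the numbers count genes that rose (left end) and fell (right end). In the receptor lists, the other JAKs and STATs, and the kinases and adaptors, more genes rose than fell in all 4. This was not so for the inhibitors, the other IRFs and IRF2 cofactors, or the DNA-binding partners. Of all genes 35.9% to 41.1% rose and 36.6% to 40.6% fell, and the lists were chosen with results of these data known.

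Genes whose pattern over the 12 libraries of the H69 table was most like that of a member were found by the root mean square difference of gene-centred log2 CPM, among 15445 genes. For NLRC5 these were TGFB1 (0.197), WLS (0.236), RUNX3 (0.259), ZFP36L1 (0.268) and CSDC2 (0.272). For IRF9 they were the RNA sensor gene DDX58 (0.143), FRZB (0.152) and B2M (0.153), and for STAT2 CDK6 (0.126), FADS3 (0.150) and GOLGA1 (0.157). IRF1 was most like VLDLR (0.127), IRF2 like PLEKHA8 (0.124), IRF7 like LPCAT4 (0.145), IRF3 like TACC2 (0.0730), JAK1 like KPNA4 (0.0621) and STAT3 like SNX19 (0.0488). These values also depend on how much a gene varies, and they are smallest for members that vary little.

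Markers of other cell states and types moved with the same contrasts. The summed level of 8 fibroblast markers was 11187 to 11481 CPM in PD-L1 high and 244 to 341 CPM in PD-L1 low libraries, 2508 to 2799 CPM in H69M and 147 to 151 CPM in H69. It was 16372 to 17804 CPM in HLA high and 94.5 to 97.2 CPM in HLA low, and 23073 to 30852 CPM in RPP-A and 86.6 to 460 CPM in RPP, and all 8 rose in each of the 4 comparisons. The 6 neuroendocrine SCLC markers summed to 1075 to 1129 CPM in PD-L1 high and 3955 to 4183 CPM in PD-L1 low, to 550 to 571 CPM in HLA high and 1893 to 1909 CPM in HLA low, and to 151 to 191 CPM in RPP-A and 2292 to 2833 CPM in RPP. In H69M, with 2739 to 2823 CPM, they were close to H69, with 2822 to 2999 CPM. The 6 non-neuroendocrine SCLC markers summed to 3417 to 3492 CPM in PD-L1 high and 59.6 to 92.4 CPM in PD-L1 low, and were also higher in each of the other 3 high groups. The 11 leukocyte markers summed to 10.8 to 12.03 CPM in PD-L1 high and 2.05 to 2.66 CPM in PD-L1 low libraries, and to 7.74 to 8.27 CPM in HLA high and 5.43 to 5.91 CPM in HLA low libraries; CD3E, CD2 and MS4A1 had no count in any human group. The 10 listed in the mouse summed to 48.0 to 55.7 CPM in RPP-A and 2.69 to 3.19 CPM in RPP, with Ptprc, Cd3e and Ms4a1 at no count in RPP-A. Endothelial markers summed to 9.64 to 10.4 CPM in PD-L1 high and 0.975 to 1.45 CPM in PD-L1 low, and to 228 to 238 CPM in HLA high, nearly all TEK, and 0.139 to 0.257 CPM in HLA low libraries. In the mouse they were lower in RPP-A, at 3.69 to 5.39 CPM, than in RPP, at 40.1 to 48.8 CPM. The part of these shifts in the levels of the 9 regulators was not tested.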

How the data were processed

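The deposited files are whole-number read counts per gene, made by the authors and not normalised, in 1 table each for H69 with H69M and its fractions, for H69EZ and for the mouse lines. RNA (250 ng) was captured with an exome kit and run on a NextSeq 500, per the labels' protocols. STAR 2.6.1 and builds hg19 and mm10 are named per the submitters' processing notes; how reads were counted, on which annotation and whether by strand is not given in the sources used here. All 22 libraries in 8 groups were used. Mouse columns were assigned by group only, with RPPM taken as RPP-A.

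Each table was fitted alone in R 4.3.3 with edgeR 4.0.16 (quasi-likelihood F-test, TMM, filterByExpr with a minimum count of 10, 1 coefficient per group, two-sided), which left 15445, 14819 and 14032 genes. P-values were adjusted by Benjamini-Hochberg over all genes tested, with a threshold of 0.05; the SE is the log2 fold change over the square root of F. The biological coefficients of variation common to a table were 0.0540, 0.0450 and 0.157. The fit was tested on simulated data. Named genes were all 9 members, up to 3 called genes of each list with the largest change, 5 genes most like NLRC5 and up to 3 most like each other member (log2 CPM with a prior count of 2); sort genes and B2M were also named. Some genes that this rule names are left out. The members and lists were chosen with earlier results of these data known. Alternatives were no filter, a count minimum of 100, the size factors and the test of DESeq2 1.42.0, library totals, the groups compared alone, a replicate block, each library left out, RPPM1 and RPPM2 summed, and EHK_RPP4 and RPPM3 left out. Promoter windows came from RefSeq (GRCh38.p14) and overlapping gene names from GENCODE v29; no coordinates were converted. Promoters of NLRC5, IRF2, IRF3 and IRF7 were not used here.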

Additional observations from a re-analysis of the deposited data

Results flagged for a closer look

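The effect of the PD-L1 sort differed from that of H69M over H69 in 8 of the 9 members, by a test of the difference on the log2 scale. Of all genes 71.4% differed, with 35.3% higher and 36.1% lower in the sort. The effect was higher in the sort for IRF9 (2.71), STAT2 (1.74), IRF7 (0.99), IRF1 (0.76) and STAT3 (0.21). It was lower for NLRC5 (-1.43), IRF2 (-1.26) and IRF3 (-1.04). The NLRC5 value rests on 12 counts in H69 and is loosely set in size. The STAT3 call was lost under library totals, with no filter, or without the first PD-L1 low or the first PD-L1 high library. The sort and H69M over H69 share no library.

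Members also moved in opposite directions in RPP-A over RPP and in H69M over H69. The log2 fold change of Irf1 was 2.30 in the mouse, against -0.32 for IRF1 in H69M over H69. That of Irf7 was 5.39, against -0.35 for IRF7, and that of Irf3 was -0.30, against 0.75 for IRF3. In each case all libraries of the first line lay on 1 side of all libraries of the second. The same held for 8 of the 9 members in both comparisons, and the share of all genes is not given here. The IRF7 call in H69M over H69 was lost without the first H69 or the first H69M library. That of Irf3 was lost without RPP1, RPP2, RPPM1 or RPPM2 and with RPPM1 and RPPM2 summed. The difference between species was not tested, and the tables were counted and scaled apart.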

How the results depend on the processing

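Of 1071 member values under alternatives, 995 kept their direction and their side of the threshold, 26 were no longer called, 20 became called and 30 changed sign. Of these, 522 left out 1 library, of which 487 kept both. Sign changes were limited to values near 0 and to mouse Stat3. STAT2 in PD-L1 low against H69 was -0.0015 with only the groups compared, and -0.073 to 0.089 with 1 library left out. STAT3 in that comparison was 0.023 at a minimum count of 100 and 0.067 under library totals. IRF3 in PD-L1 high against H69M was -0.035 with no filter, -0.054 under library totals, -0.0076 with only the groups compared and -0.034 to 0.042 with 1 library left out. IRF2 in PD-L1 low against H69M was 0.0066 at a minimum count of 100, 0.025 under library totals and -0.11 to 0.038 with 1 library left out. In the mouse, Stat3 was -0.11 under library totals, and Irf2 was 0.016 with no filter, 0.0055 with DESeq2 size factors, 0.0061 by the DESeq2 test, 0.091 with RPPM1 and RPPM2 summed and -0.15 to 0.12 with 1 library left out. The JAK1 difference was -0.055 with no filter, -0.043 at a minimum count of 100, -0.16 under library totals and -0.067 to 0.044 with 1 library left out. The count of members that fell was 1 to 2 in H69M over H69 and 0 to 1 in the HLA sort and the mouse with 1 library left out, 2 in the HLA sort under library totals, and in the mouse 0 with RPPM1 and RPPM2 summed and 2 without EHK_RPP4 and RPPM3. The causes were not tested. NLRC5 in H69, with 12 counts, is the value most limited by depth.

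No pairing by replicate number was seen in the H69 table. There same-numbered libraries correlated at -0.164 to 0.0946 after centring within groups, and libraries of unlike number at -0.0870 to 0.152. In the H69EZ table the values were 0.0379 and -0.0379. With 2 libraries a group, centring makes these mirror images, so they cannot decide on pairing. Weak correlations do not show that libraries were prepared separately. With the replicate number as a block no member call changed, with 5 members higher and 2 lower in H69M over H69, 8 and 1 in the PD-L1 sort and 7 and 1 in the HLA sort. No paired analysis was possible in the mouse table because the numbers in its columns are not those of the labels. Of 2142 counts of pathway lists under alternatives, 2063 stayed within 1.5 times and 79 did not.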
